A study of Homo sapiens with 18 samples.

Results

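The heat shock proteins and their co-chaperones were followed as a set of 37 genes chosen by name, and all 37 were found among the 36204 gene names of the array. They comprised 10 cytosolic HSP70 and HSP110 proteins, 2 HSP70 proteins of other compartments, 2 HSP90 proteins with 5 of their co-chaperones, 6 J-domain proteins, 2 BAG nucleotide exchange factors, the 2 subunits of the mitochondrial chaperonin, 3 small heat shock proteins, 2 heat shock factors, 2 ubiquitin ligase partners and 1 collagen chaperone. A total of 59 probes read them, 22 genes having 1 probe and 15 several, and the probe with the highest mean stood for its gene. Global gene expression had been profiled on 18 one-color arrays, 3 in each of 6 groups. HT29, a human colorectal cancer line, was left untreated, exposed to 10 μM oxaliplatin (OXA), or exposed to 10 μM OXA with 10 μM Curcumin, in both cases for 24 h. HTOXAR3, the OXA-resistant sub-line derived from HT29, was left untreated or received 30 μM OXA with or without 10 μM Curcumin for the same time. None of these groups received Curcumin alone, so its effect was read as OXA plus Curcumin against OXA, and the dose of OXA cannot be told apart from the cell line wherever the lines were compared after treatment. The study dissolved Curcumin in ethanol and OXA in water. Whether the OXA arrays received ethanol is not stated, so ethanol and Curcumin cannot be told apart. The labels call the basal cells untreated, whereas the results of the study speak of vehicle treatment. HTOXAR3 is 1 sub-line. The labels and the methods of the study call the 3 arrays of a group biological replicates, without saying how the cultures were kept apart.

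Heat shock proteins are molecular chaperones that bind unfolded or misfolded proteins and help them to fold, assemble or be degraded. HSP70 proteins work in cycles of ATP hydrolysis that J-domain proteins start and nucleotide exchange factors such as HSP110 and BAG proteins end, and HSP90 receives part of their clients through adaptor co-chaperones. Protein-damaging stress releases the transcription factor HSF1 from chaperones, and HSF1 then binds heat shock elements upstream of chaperone genes and raises their transcription.

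The scanner software marked 52.4% to 63.6% of non-control spots as well above background, depending on the array, and marked 36 of the 37 genes so on all 18. The exception was *HSPB8*. Of 9 epithelial markers, 7 were well above background on every array, while CEACAM5 was on 16 and CDX2 on 10. Of 7 markers of other cell types, PTPRC and CD14 were on all 18 arrays and CD3E and DES on 17. COL1A1 was on 10, PECAM1 on 5 and COL3A1 on 0. Log2 intensities ran from 2.00 to 11.52 over the 7, and this mark did not separate them from the epithelial markers. The arrays lay on 3 slides, and 1 of them held only the first replicates of untreated and of OXA-treated HT29. A lower value on these arrays can mean less RNA of that gene per cell or fewer cells that express it, which cannot be told apart.

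Adding Curcumin to OXA raised some genes of the set in both lines. In HT29, 7 of the 37 genes were called higher and 0 lower, where called means an adjusted p under 0.05 with a fold change over 1.2 in limma. Over all gene names tested, 3.14% were called higher and 2.39% lower in this comparison. Without adjustment, 15 of the 37 in HT29 had p under 0.05 and were higher and 3 were lower, and in HTOXAR3 18 were higher and 4 lower. The share of all names at this level was not computed. Unadjusted counts, here and below, are thus not read as a result about the genes counted. In HTOXAR3, 12 genes were called higher and 1 lower, against 4.43% and 4.41% of all names. The 7 genes called in HT29 were all called in HTOXAR3 in the same direction, namely *HSPA1A*, *HSPA1B*, *HSPA6*, *DNAJB2*, *DNAJB4*, *BAG1* and *BAG3*. The other 6 called in HTOXAR3 were *HSPH1*, *DNAJA4*, *DNAJB1*, *DNAJB6* and *HSPB8*, which rose, and *STUB1*, which fell. A test of the difference between the lines called 0 of the 37, with 0.0276% of all names called higher and 0.108% lower, and 5 of the 37 had an unadjusted p under 0.05. These were *HSPA1A* (0.27), *HSPA1B* (0.38), *DNAJA4* (0.33) and *DNAJB2* (0.23), with the larger rise in HTOXAR3, and *STUB1* (-0.38). The median log2 difference of the set was 0.10 in HT29 and 0.15 in HTOXAR3, with a median of -0.02 over all names in each line. When only the arrays of the 2 groups compared entered the model, *HSPA6* alone was still called in HT29, and *HSPA6*, *HSPA1A*, *HSPA1B* and *HSPB8* in HTOXAR3.

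**Figure D1:**
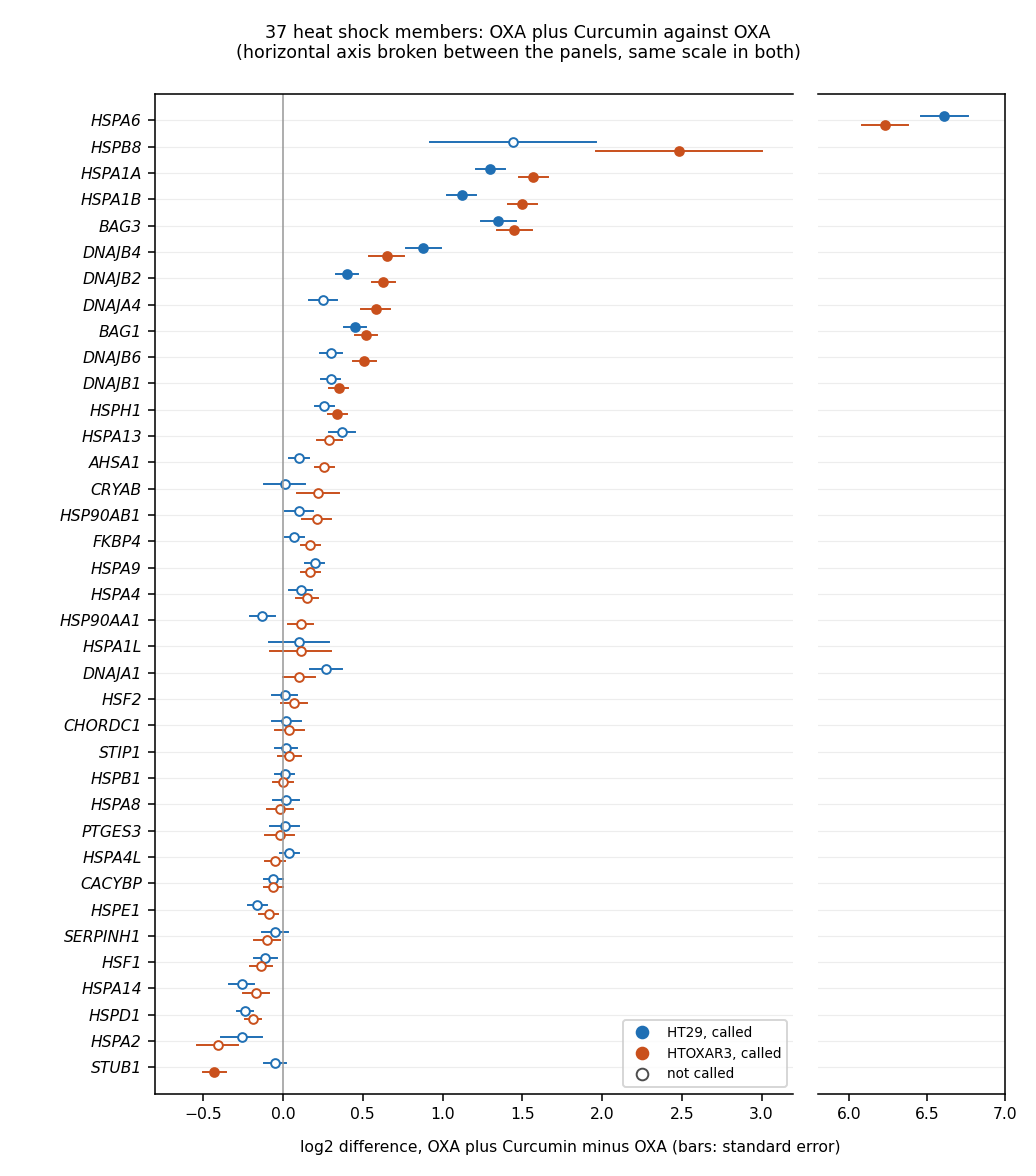
Log2 difference between OXA plus Curcumin and OXA for each of the 37 genes, in HT29 (blue) and HTOXAR3 (orange), with bars of 1 standard error and filled points for called genes. The horizontal axis is broken so that *HSPA6*, at 6.61 and 6.23, can be shown, and most of the other genes lie near 0 in both lines. The open *HSPB8* point in HT29 rests on an OXA group that was not well above background and is no measured size.

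*HSPA6*, which encodes the strictly inducible HSP70B′, gave the largest rise of all 36203 gene names tested in either line. Its log2 intensity was 5.67, 5.70 and 5.42 on the HT29 arrays with OXA, and 12.31, 12.42 and 11.88 on those with OXA plus Curcumin. In HTOXAR3 it was 6.50, 6.61 and 6.47 with OXA and 12.82, 12.47 and 12.98 with OXA plus Curcumin. The untreated arrays read 6.02, 6.18 and 6.29 in HT29 and 6.63, 6.72 and 6.40 in HTOXAR3. Thus the 6 arrays with Curcumin stood far above the other 12 and no groups overlapped between them. The log2 difference was 6.61 ± 0.15 (standard error, n = 3 per group) in HT29 and 6.23 ± 0.15 in HTOXAR3, which are 97.4-fold and 74.8-fold, with adjusted p from limma of 2.78e-10 and 6.17e-10. A second probe of the gene gave smaller log2 differences, 4.13 in HT29 and 4.02 in HTOXAR3. Both probes also list the transcript of *HSPA7*, a closely related pseudogene, so these values belong to *HSPA6* and *HSPA7* together.

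*HSPA1A* and *HSPA1B* encode almost the same protein, the major stress-inducible HSP70, from neighbouring genes. *HSPA1A* read 12.71, 12.61 and 12.66 on the OXA arrays of HT29 and 13.84, 14.08 and 13.94 with Curcumin added, whereas in HTOXAR3 it read 13.25, 13.25 and 13.27 with OXA and 14.90, 14.62 and 14.96 with Curcumin. It therefore rose 2.45-fold in HT29 (log2 difference 1.30 ± 0.09, limma adjusted p = 7.01e-06) and 2.96-fold in HTOXAR3 (1.57 ± 0.09, limma adjusted p = 8.35e-07). *HSPA1B* moved from 12.63, 12.56 and 12.62 to 13.62, 13.83 and 13.72 in HT29. In HTOXAR3 it moved from 13.01, 12.96 and 12.97 to 14.53, 14.34 and 14.57. The *HSPA1B* log2 differences were 1.12 ± 0.09 and 1.50 ± 0.09 (limma adjusted p = 3.14e-05 and 1.53e-06). The 60-base probes of different HSP70 genes matched each other at 17 to 24 bases in the best ungapped alignment over 20 pairs, but transcripts of *HSPA1A* and *HSPA1B* are nearly identical and signal shared between them was not tested.

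The constitutive HSP70, *HSPA8*, showed no such rise. It read 15.01, 15.02 and 14.87 with OXA and 14.91, 15.11 and 14.95 with Curcumin in HT29, and 15.22, 15.27 and 15.20 against 15.23, 15.16 and 15.24 in HTOXAR3. Its log2 differences were 0.02 ± 0.08 and -0.02 ± 0.08, and the groups overlapped in both lines. *HSPH1*, the HSP110 exchange factor of HSP70, read 15.28, 15.18 and 15.18 with OXA and 15.60, 15.47 and 15.58 with Curcumin in HTOXAR3, a difference of 0.34 ± 0.06 (limma adjusted p = 0.0227). In HT29 the same probe went from 15.29, 15.14 and 15.31 to 15.53, 15.56 and 15.43 (0.26 ± 0.06, limma adjusted p = 0.172). Its other probe was called in both lines, at 0.67 and 0.51. The call in HTOXAR3 was lost under either scaling to the 75th percentile, with the replicate block within each line (limma adjusted p = 0.0721), and without replicate 1 or 3 with Curcumin or 2 or 3 with OXA. The remaining cytosolic HSP70 relatives, *HSPA1L*, *HSPA2*, *HSPA4*, *HSPA4L* and *HSPA14*, and the organelle proteins *HSPA9* and *HSPA13* were not called, with log2 differences from -0.41 to 0.37. *HSPA13* was the highest of them (0.37 and 0.29, limma adjusted p = 0.066 and 0.198), without overlap of its groups, and was called under 4 other settings in HT29 and with Benjamini-Hochberg adjustment in HTOXAR3.

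The sequences upstream of 4 of these HSP70 genes, 3 that rose and *HSPA8* that did not, are given to show where heat shock elements lie. They are the 250 bases before the start of the gene, 5′ to 3′ on the strand of the gene, from RefSeq on GRCh38.p14, with each match of GAANNTTC or TTCNNGAA in capitals. The windows are chr1:161524290-161524539 on the plus strand for *HSPA6*, chr6:31815293-31815542 and chr6:31827488-31827737 on the plus strand for *HSPA1A* and *HSPA1B*, and chr11:123062137-123062386 on the minus strand for *HSPA8*.
HSPA6: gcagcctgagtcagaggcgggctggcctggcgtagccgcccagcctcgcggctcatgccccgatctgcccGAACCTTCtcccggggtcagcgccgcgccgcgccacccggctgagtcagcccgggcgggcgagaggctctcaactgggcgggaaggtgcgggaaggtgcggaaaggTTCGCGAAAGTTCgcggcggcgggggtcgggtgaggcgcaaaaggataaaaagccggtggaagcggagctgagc
HSPA1A: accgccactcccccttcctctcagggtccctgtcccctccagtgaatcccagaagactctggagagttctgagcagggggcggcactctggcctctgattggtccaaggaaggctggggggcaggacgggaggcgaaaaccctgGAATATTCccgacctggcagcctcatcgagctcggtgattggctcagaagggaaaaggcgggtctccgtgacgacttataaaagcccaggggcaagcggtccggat
HSPA1B: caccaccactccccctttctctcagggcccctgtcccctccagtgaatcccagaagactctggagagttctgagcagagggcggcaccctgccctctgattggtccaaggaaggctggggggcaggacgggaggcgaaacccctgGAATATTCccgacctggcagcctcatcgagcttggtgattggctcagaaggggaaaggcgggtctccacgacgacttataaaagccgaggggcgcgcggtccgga
HSPA8: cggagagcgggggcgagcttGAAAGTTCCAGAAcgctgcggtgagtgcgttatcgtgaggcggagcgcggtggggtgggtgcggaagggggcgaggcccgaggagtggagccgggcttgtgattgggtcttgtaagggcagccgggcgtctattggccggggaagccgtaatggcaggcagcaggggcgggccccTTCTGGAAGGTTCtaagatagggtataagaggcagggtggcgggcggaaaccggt
*HSPA6* held 3 matches, of which a pair overlapping by 3 bases formed 3 units in a row that began 74 bases before the start. *HSPA1A* and *HSPA1B* each held 1 match, 106 and 105 bases before the start, and 235 of 249 bases aligned without gaps were identical between them. *HSPA8* held 4 matches in 2 such runs, beginning 230 and 55 bases before the start, although it was not called on adding Curcumin in either line.

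A heat shock element is built of inverted repeats of the unit GAA, and the letters searched here were 2 units facing either way, GAANNTTC or TTCNNGAA, each of which is its own reverse complement. Windows from 250 before to 50 after a start, were matched by symbol for 32 of the 37 genes, and several genes had more than 1 start, giving 48 windows. At least 1 match was found in 21 of these windows (43.8%), compared with 13.5% of all 35116 windows, and in 20 of the 32 genes (62.5%), compared with 16.2% of all 27305 genes. The stricter form of 3 units in a row was found in 9 of the 48 windows (18.8%) and in 0.49% of all windows. Of the 7 genes called in both lines, 4 held a match and 1 held 3 units in a row, *HSPA6*. Of the 6 called in HTOXAR3 only, 5 had a window, 4 held a match and 1 held 3 units in a row, *DNAJB6*. Of the 24 genes called in neither line, 20 had a window, 12 held a match and 7 held 3 units in a row, among them *HSP90AA1*, *HSP90AB1*, *HSPD1* and *CHORDC1*. *BAG3*, *BAG1* and *DNAJB2*, called in both lines, held no match in this window. A match is a description of the letters only, and *STUB1*, *HSF1*, *FKBP4*, *HSPA14* and *CRYAB* were not examined.

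**Figure D2:**
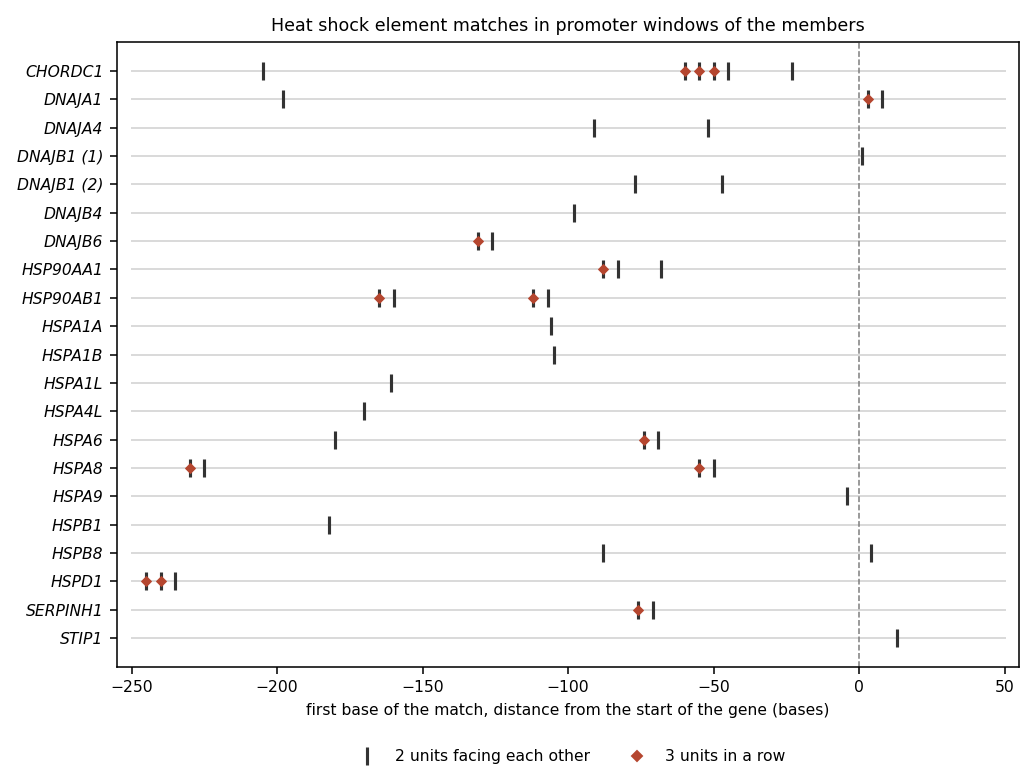
Positions of heat shock element matches in the 21 windows that held at least 1, as the distance in bases of the first base of the match from the start of the gene (dashed line). Black bars are 2 units facing each other and red diamonds the first base of 3 units in a row, and *DNAJB1* is drawn for 2 of its windows. Matches are seen both in genes that rose, such as *HSPA6*, and in genes that were not called, such as *HSPA8*.

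BAG proteins release ADP from HSP70 and link it to other pathways, BAG3 to selective autophagy and BAG1 to the proteasome, and both genes were higher with OXA plus Curcumin than with OXA in both lines. *BAG3* read 9.60, 9.63 and 9.29 with OXA and 10.89, 10.98 and 10.71 with Curcumin in HT29. In HTOXAR3 it read 9.67, 9.74 and 9.48 with OXA and 11.14, 10.90 and 11.22 with Curcumin. These are 2.55-fold and 2.74-fold rises (log2 differences 1.35 ± 0.11 and 1.45 ± 0.11, limma adjusted p = 4.06e-05 and 1.32e-05). *BAG1* changed less, from 13.18, 13.28 and 13.29 to 13.82, 13.71 and 13.58 in HT29 and from 13.36, 13.37 and 13.27 to 13.85, 13.83 and 13.89 in HTOXAR3. Its log2 differences were 0.45 ± 0.07 and 0.52 ± 0.07 (limma adjusted p = 0.00517 and 0.00104), and the OXA and OXA plus Curcumin arrays did not overlap in either line.

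Of the 6 J-domain proteins, which deliver clients to HSP70 and start its ATP hydrolysis, 2 were called higher in HT29 and 5 in HTOXAR3. *DNAJB4* read 7.54, 7.42 and 7.45 with OXA and 8.46, 8.46 and 8.14 with Curcumin in HT29, and 7.57, 7.30 and 7.39 against 8.14, 7.97 and 8.10 in HTOXAR3 (log2 differences 0.88 ± 0.11 and 0.65 ± 0.11, limma adjusted p = 0.00186 and 0.0131). The HTOXAR3 call was lost without replicate 1 or 3 with Curcumin or 2 or 3 with OXA. *DNAJB2* read 12.98, 13.10 and 13.10 with OXA and 13.61, 13.40 and 13.36 with Curcumin in HT29, and 12.30, 12.25 and 12.24 against 12.92, 12.80 and 12.96 in HTOXAR3. The *DNAJB2* differences were 0.40 ± 0.07 and 0.63 ± 0.07 (limma adjusted p = 0.0169 and 0.000284). The first of these was lost with slide as a block (0.36, limma adjusted p = 0.0597), with the replicate block within each line (limma adjusted p = 0.107), with the mean of both probes (0.28, limma adjusted p = 0.173) and without any 1 of 3 arrays, replicate 1 with Curcumin or 1 or 2 with OXA. The other *DNAJB2* probe, at 0.16 and 0.44, was called in neither line.

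*DNAJB1*, the main stress-inducible J-domain partner of HSP70, changed little. It read 10.95, 11.03 and 10.98 with OXA and 11.24, 11.31 and 11.32 with Curcumin in HT29 (0.30 ± 0.06, limma adjusted p = 0.0567). In HTOXAR3 it read 11.10, 11.21 and 11.02 with OXA and 11.51, 11.37 and 11.52 with Curcumin (0.35 ± 0.06, limma adjusted p = 0.0118). All arrays with Curcumin were above those with OXA in either line, and the HT29 value was called under 4 of the other settings, including Benjamini-Hochberg adjustment. The HTOXAR3 call was lost with the replicate block within each line (limma adjusted p = 0.0751) and without replicate 1 or 3 of either group. *DNAJA4* rose in HTOXAR3 from 11.83, 11.80 and 11.94 to 12.65, 12.20 and 12.47 (0.58 ± 0.09, limma adjusted p = 0.00448), while its HT29 arrays went from 12.06, 11.99 and 11.93 to 12.28, 12.25 and 12.22 (0.25 ± 0.09, limma adjusted p = 0.988). *DNAJB6*, which keeps aggregation-prone proteins soluble, rose in HTOXAR3 from 13.36, 13.31 and 13.37 to 13.88, 13.80 and 13.90 (0.51 ± 0.07, limma adjusted p = 0.00169). Its HT29 arrays went from 13.46, 13.48 and 13.59 to 13.90, 13.81 and 13.72 (0.30 ± 0.07, limma adjusted p = 0.119). Its 3 probes disagreed, since the dimmest gave -0.13 in HT29 and -0.26 in HTOXAR3, neither of them called, and the HTOXAR3 call was lost with their mean (0.25, limma adjusted p = 0.222). *DNAJA1* was not called in either line, at 0.27 and 0.10.

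**Figure D3:**
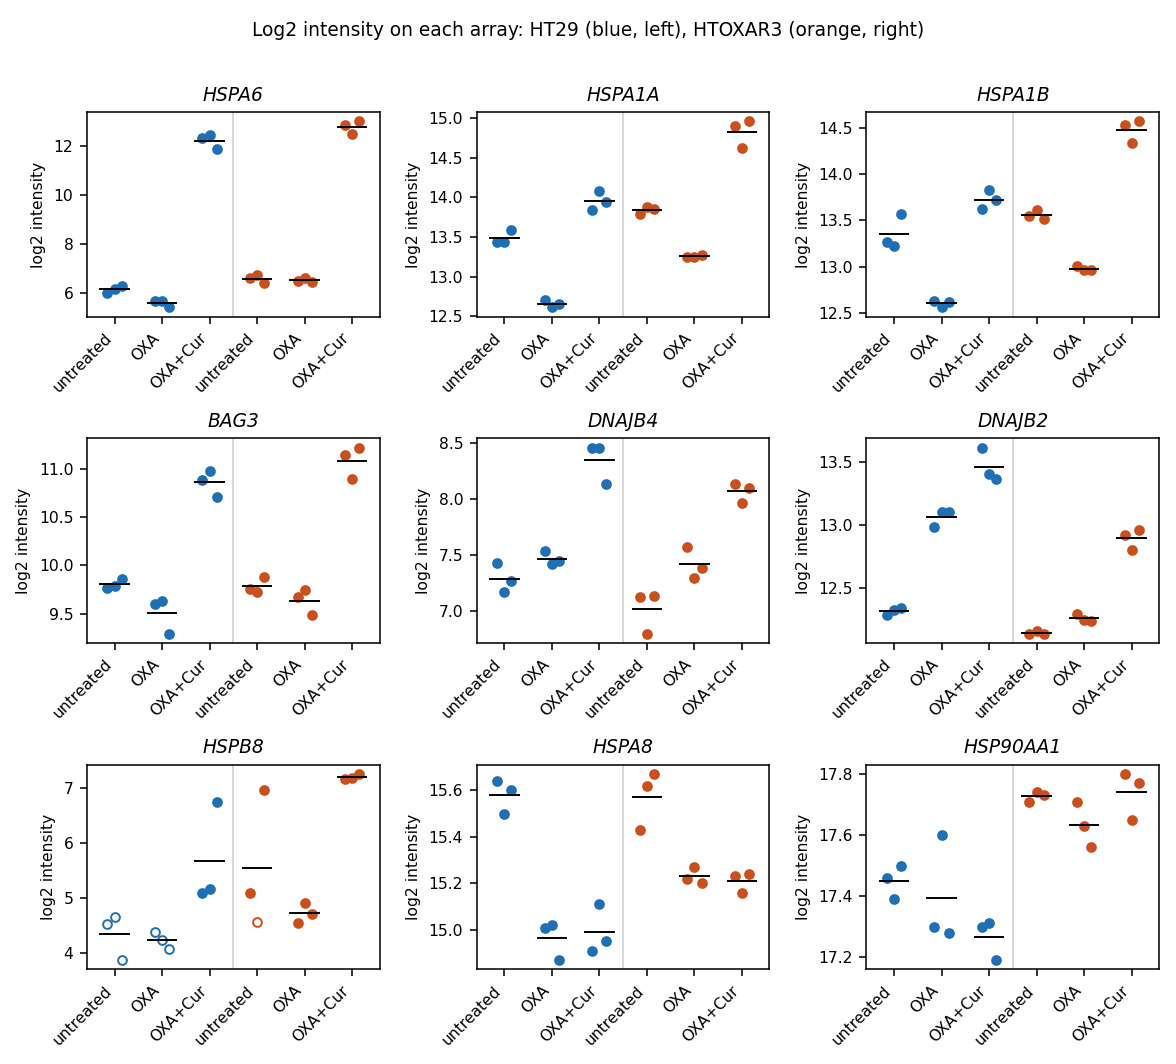
Log2 intensity of 9 genes on each of the 18 arrays, with HT29 in blue on the left of each panel and HTOXAR3 in orange on the right, 3 arrays per group and a line at the group mean. Open points were not well above background. *HSPA6* stands at 11.88 or higher on the 6 arrays with Curcumin and at 6.72 or lower on the other 12, while *HSPA8* and *HSP90AA1* show no such step.

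Small heat shock proteins hold unfolding proteins in a state from which HSP70 can refold them, and HSPB8 forms a complex with BAG3. *HSPB8* was a dim gene, and none of the untreated or OXA-treated HT29 arrays read it well above background. In HTOXAR3 it read 4.55, 4.91 and 4.71 with OXA and 7.17, 7.18 and 7.26 with Curcumin (2.48 ± 0.52, limma adjusted p = 0.0419). This call was lost when any 1 of the 6 arrays was left out, under either scaling to the 75th percentile, and with the replicate number as a block (limma adjusted p = 0.0567, or 0.134 with the block within each line). The size also depended on the background correction and scaling, from 1.37 with an offset of 50 to 3.30 on the processed signal. In HT29 the 3 arrays with Curcumin read 5.09, 5.16 and 6.75 and those with OXA 4.39, 4.23 and 4.08. The difference there was not called (limma adjusted p = 1). No fold is given, since the OXA group was not measured above background and 1 array, at 6.75, stood above the other 2 with Curcumin. The untreated HTOXAR3 arrays read 5.10, 4.56 and 6.97, so that 1 of them came close to the level with Curcumin. *HSPB1*, the abundant HSP27, read 16.20, 16.18 and 16.21 with OXA and 16.19, 16.17 and 16.26 with Curcumin in HT29, and 16.10, 16.03 and 16.09 against 16.08, 15.95 and 16.18 in HTOXAR3. Its groups overlapped in both lines. *CRYAB* was not called, at 0.01 and 0.22.

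The HSP90 branch was not called. *HSP90AA1*, the inducible cytosolic HSP90, read 17.30, 17.60 and 17.28 with OXA and 17.30, 17.31 and 17.19 with Curcumin in HT29 (-0.13 ± 0.08), and 17.71, 17.63 and 17.56 against 17.80, 17.65 and 17.77 in HTOXAR3 (0.11 ± 0.08). *HSP90AB1*, the constitutive form, read 13.92, 13.95 and 13.95 against 14.13, 14.07 and 13.92 in HT29 (0.10 ± 0.09), and 14.31, 14.45 and 14.22 against 14.60, 14.47 and 14.54 in HTOXAR3 (0.21 ± 0.09). The limma adjusted p was 1 for each of these 4 values. Among the co-chaperones, the client adaptor *STIP1*, the ATPase activator *AHSA1*, *CHORDC1*, the immunophilin *FKBP4* and *PTGES3*, which encodes p23, had log2 differences from 0.01 to 0.10 in HT29 and from -0.02 to 0.26 in HTOXAR3.

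The mitochondrial chaperonin, formed by HSP60 (*HSPD1*) with its lid HSP10 (*HSPE1*), was slightly lower with Curcumin without being called. *HSPD1* read 17.99, 17.95 and 18.05 with OXA and 17.77, 17.77 and 17.71 with Curcumin in HT29 (-0.24 ± 0.05, limma adjusted p = 0.0535), and 17.72, 17.62 and 17.65 against 17.49, 17.45 and 17.47 in HTOXAR3 (-0.19 ± 0.05, limma adjusted p = 0.162). The groups did not overlap in either line, but the change was below the fold of 1.2. *HSPE1* read 17.35, 17.25 and 17.24 against 17.06, 17.19 and 17.12 in HT29 and 16.85, 16.73 and 16.80 against 16.69, 16.71 and 16.71 in HTOXAR3 (-0.16 ± 0.06 and -0.09 ± 0.06).

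Neither heat shock factor was called. *HSF1*, whose product is regulated mainly after translation, read 15.94, 15.82 and 15.80 with OXA and 15.82, 15.61 and 15.81 with Curcumin in HT29 (-0.11 ± 0.07), and 15.48, 15.45 and 15.43 against 15.36, 15.27 and 15.33 in HTOXAR3 (-0.14 ± 0.07). *HSF2* gave 0.01 and 0.07. *STUB1*, which encodes CHIP, the ubiquitin ligase that marks clients of HSP70 and HSP90 for degradation, was the only gene of the set called lower on adding Curcumin. In HTOXAR3 it read 13.74, 13.95 and 13.90 with OXA and 13.41, 13.44 and 13.45 with Curcumin (-0.43 ± 0.07, limma adjusted p = 0.00515). In HT29 it read 13.41, 13.39 and 13.27 with OXA and 13.28, 13.25 and 13.41 with Curcumin (-0.05 ± 0.07, limma adjusted p = 1), with overlapping groups. The difference between the lines was -0.38 ± 0.10 with an unadjusted p of 0.00143 and a limma adjusted p of 1. *CACYBP* and the collagen chaperone gene *SERPINH1* had log2 differences from -0.10 to -0.05.

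Within the slides that held both groups, the *HSPA6* log2 differences on adding Curcumin were 6.67 and 6.46 in HT29 and 6.31 and 6.18 in HTOXAR3. Those of *BAG3* were 1.30 and 1.41, and 1.47 and 1.45, respectively.

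Other chaperone genes were listed by pathway to see which of them moved alongside, and the lists were chosen with earlier results of these data known. On adding Curcumin, 3.14% of all names were called higher and 2.39% lower in HT29, and 4.43% and 4.41% in HTOXAR3. Of 16 endoplasmic reticulum chaperones, which fold secretory and membrane proteins, 1 was lower in each line at an unadjusted p under 0.05. By limma, 0 were called lower in either line, and 7 of 16 were called higher in HT29 and 8 of 16 in HTOXAR3. They included *DNAJB9*, a J-domain cofactor of BiP (1.79 and 1.64), *DNAJC3* (0.96 and 0.75), *HSP90B1*, the HSP90 of this compartment (0.79 and 0.75), and *HSPA5*, which encodes BiP itself (0.73 and 0.60). The median log2 difference of this list was 0.41 in HT29 and 0.44 in HTOXAR3. With OXA alone, 6 of the 16 were called lower than untreated in HT29 and 5 in HTOXAR3, where 7.62% and 4.94% of all names were. OXA plus Curcumin against untreated had 4 higher and 3 lower in HT29, with 9.56% and 9.02% of all names called, and 5 higher and 2 lower in HTOXAR3, with 8.82% and 8.64%. The medians were 0.01 and 0.07. Of 9 further stress genes known to be bound by HSF1, OXA alone against untreated had 3 called higher in HT29 and 1 in HTOXAR3, with 0 lower. Of all names, 8.33% and 5.31% were called higher there. On adding Curcumin, 4 of the 9 were called higher in HT29, and 5 higher and 1 lower in HTOXAR3, beside the shares of all names given above. *ZFAND2A*, a stress-induced proteasome partner, rose by 2.71 and 2.97 on the log2 scale, *SQSTM1*, the autophagy receptor p62, by 0.89 and 1.17, *DEDD2* by 0.56 and 0.75, and *IER5* by 0.36 and 0.53, whereas *RGS2*, named after its value was seen, fell by 0.39 in HTOXAR3.

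In each of the other chaperone lists, at most 1 gene was called higher and at most 2 lower in a line. Of all names, 3.14% were called higher and 2.39% lower in HT29, and 4.43% and 4.41% in HTOXAR3. In the mitochondrial list, 1 higher and 2 lower of 12 in HTOXAR3 lay above these shares. In the cytosolic chaperonin TRiC with prefoldin, 0 of 14 genes were called higher, and 1 was called lower, *CCT5* in HT29 (-0.58, limma adjusted p = 0.0324). At an unadjusted p under 0.05, 0 were higher and 6 lower in HT29, and 1 higher and 6 lower in HTOXAR3. Of 12 mitochondrial chaperones and proteases, *CLPB* was called higher in both lines (0.35 and 0.36) and *TRAP1*, the mitochondrial HSP90, lower in both (-0.52 and -0.63), with *LONP1* also lower in HTOXAR3 (-0.35), and 8 of the 12 in HT29 and 6 in HTOXAR3 had an unadjusted p under 0.05. Of 18 other HSP90 and HSP70 co-chaperones, only *UNC45A* was called, in HTOXAR3 (0.34), while 6 in HT29 and 9 in HTOXAR3 had an unadjusted p under 0.05. Of 23 other J-domain proteins, *DNAJC5* was called higher and *DNAJC9* lower in HT29 (0.37 and -0.29), and *DNAJC11* lower in HTOXAR3 (-0.37). At an unadjusted p under 0.05, 3 were higher and 6 lower in HT29, and 5 higher and 9 lower in HTOXAR3. None of 11 other small heat shock proteins, HSP70 relatives and heat shock factors on the array was called in either line by limma, 1 in HT29 and 0 in HTOXAR3 had an unadjusted p under 0.05, and their median log2 difference was -0.10 in HT29 and 0.00 in HTOXAR3.

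After OXA without Curcumin, more genes of the set were called lower than higher, and most were not called. In HT29, 12 of the 37 genes were called lower and 3 higher than in untreated cells, where 7.62% of all names were called lower and 8.33% higher. In HTOXAR3, 5 were called lower and 1 higher, against 4.94% and 5.31% of all names. The median log2 difference of the set was -0.20 in HT29 and -0.09 in HTOXAR3, compared with -0.01 and 0.01 over all names. When only the arrays of both groups entered the model, 4 calls were left in HT29 and 0 in HTOXAR3, and in HTOXAR3 leaving out any 1 of 4 arrays (replicates 2 and 3 of either group) left 3 calls.

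The genes called lower in both lines were *HSPA1A*, *HSPA1B*, *HSPA8*, *BAG1* and *HSPE1*. *HSPA1A* read 13.44, 13.44 and 13.59 in untreated HT29 and 13.79, 13.88 and 13.85 in untreated HTOXAR3, and all OXA arrays of the same line were below these (-0.83 ± 0.09 and -0.58 ± 0.09, limma adjusted p = 6.15e-05 and 0.00295). *HSPA1B* read 13.27, 13.22 and 13.57 in untreated HT29 and 13.55, 13.61 and 13.52 in untreated HTOXAR3 (-0.75 ± 0.09 and -0.58 ± 0.09). *HSPA8* read 15.64, 15.50 and 15.60 in untreated HT29 and 15.43, 15.62 and 15.67 in untreated HTOXAR3 (-0.61 ± 0.08 and -0.34 ± 0.08). Its call in HTOXAR3 lay at the threshold and was lost without any array except untreated replicate 1, with slide as a block and with the replicate block. *BAG1* was at 13.81, 13.78 and 13.73 in untreated HT29 and 13.99, 13.85 and 13.87 in untreated HTOXAR3 (-0.53 ± 0.07 and -0.57 ± 0.07), and *HSPE1* was at 17.71, 17.63 and 17.57 and at 17.09, 17.13 and 17.08 (-0.35 ± 0.06 and -0.31 ± 0.06). The *HSPE1* call in HTOXAR3 was lost without any 1 untreated array, without replicate 2 or 3 with OXA, and with the replicate block within each line.

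A further 7 genes were called lower in HT29 and not in HTOXAR3, and of these the difference between the lines passed its own test for *HSPA4L* only. *HSPA4L*, an HSP110 relative, read 10.61, 10.61 and 10.74 in untreated HT29 and 9.68, 9.64 and 9.80 with OXA (-0.95 ± 0.06, limma adjusted p = 9.95e-07). In HTOXAR3 it read 10.73, 10.61 and 10.78 untreated and 10.50, 10.45 and 10.45 with OXA (-0.24 ± 0.06), so that the responses differed by 0.70 ± 0.09 (limma adjusted p = 0.00559). *STUB1* read 14.06, 14.03 and 14.02 in untreated HT29 and 14.09, 14.21 and 14.13 in untreated HTOXAR3 (-0.68 ± 0.07 and -0.28 ± 0.07, limma adjusted p for the difference 0.42). The others were *PTGES3* (-0.54), the mitochondrial HSP70 gene *HSPA9* (-0.47), *AHSA1* (-0.39), *HSPH1* (-0.34) and *CACYBP* (-0.28). The call of *CACYBP* was lost with the replicate block within each line and without any array except replicate 3 with OXA, and that of *HSPH1* without untreated replicate 3 or replicate 2 with OXA.

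*HSF1* was called higher after OXA in both lines, from 15.54, 15.59 and 15.45 in untreated HT29 and 15.11, 15.15 and 15.09 in untreated HTOXAR3 (0.32 ± 0.07 and 0.34 ± 0.07, limma adjusted p = 0.0204 and 0.0207). The HT29 call was lost under either scaling to the 75th percentile, with the replicate block within each line and without 4 of the 6 arrays (replicate 1 or 3 untreated, or 1 or 2 with OXA), and the HTOXAR3 call with that block and without any 1 array. The 2 other *HSF1* probes were not called. *HSPB1* was called higher in HT29 (0.48 ± 0.06, limma adjusted p = 0.000611), its untreated arrays reading 15.72, 15.67 and 15.78. *DNAJB2*, a neuron-enriched J-domain protein, rose in HT29 from 12.29, 12.33 and 12.34 (0.74 ± 0.07, limma adjusted p = 2.11e-05), while the untreated HTOXAR3 arrays at 12.14, 12.16 and 12.14 were only slightly below those with OXA (0.12 ± 0.07). The *DNAJB2* responses differed between the lines by -0.62 ± 0.10 (limma adjusted p = 0.0283), a call lost without any array except HT29 replicate 1 with OXA. These were the 2 of 37 genes called for a difference between lines in the response to OXA, *HSPA4L* higher and *DNAJB2* lower, with 0.608% of all names called higher and 0.398% lower. *HSPA6*, at -0.57 in HT29 and -0.06 in HTOXAR3, was not called, although its second probe was in HT29 (-1.23, limma adjusted p = 0.00954). Other probes also gave calls that the probe used did not. The dimmest *DNAJB6* probe was called higher in both lines (0.63 and 0.86, limma adjusted p = 6e-04 and 7.98e-05), against -0.02 and -0.03 for the probe used, and both other *CHORDC1* probes were called lower in HT29 (-0.49 and -0.55). In the opposite way, the dimmest of 3 *HSPB1* probes gave 0.08 in HT29 and was not called.

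**Figure D4:**
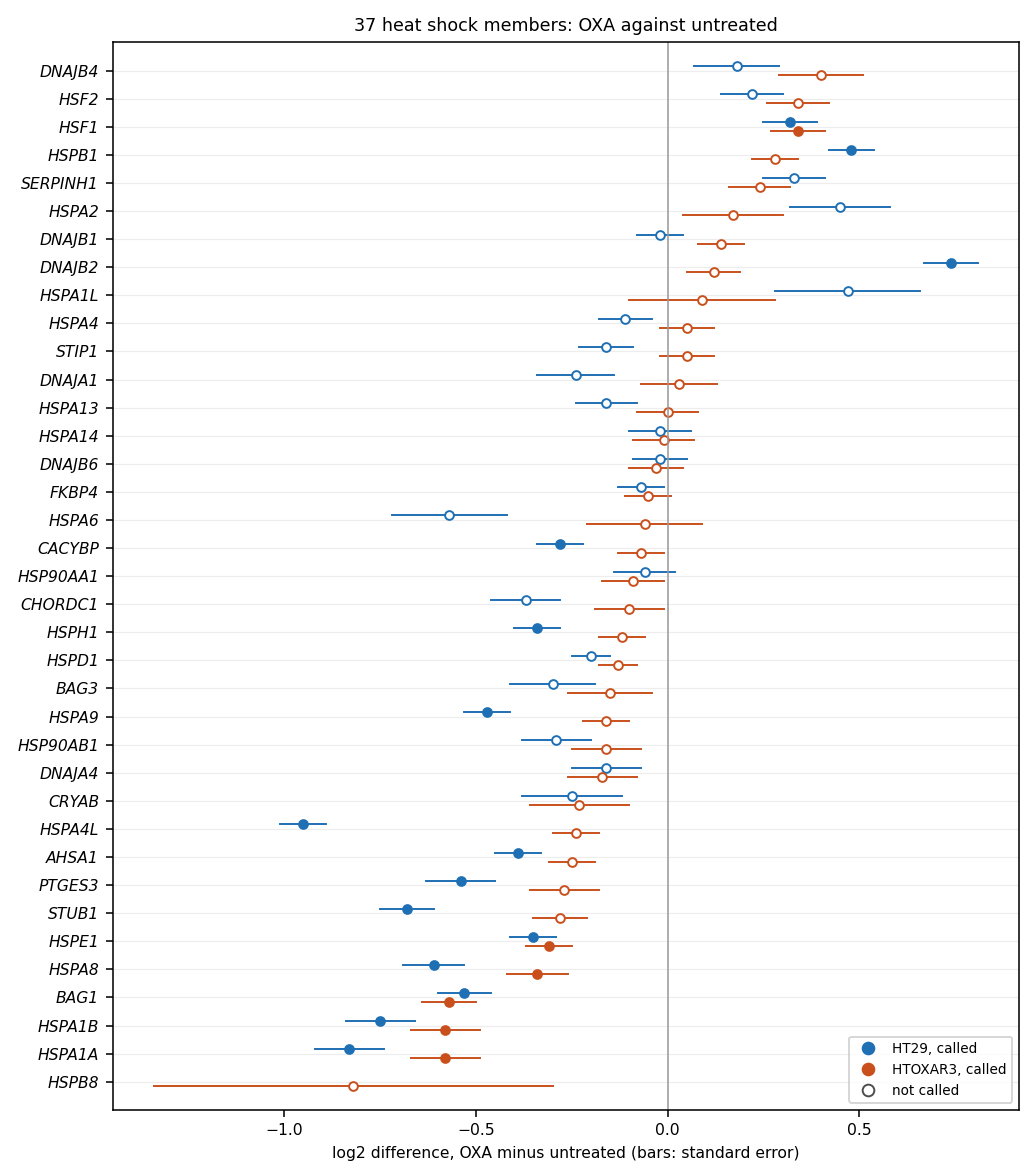
Log2 difference between OXA and untreated cells for each gene, in HT29 (blue) and HTOXAR3 (orange), with bars of 1 standard error and filled points for called genes. *HSPB8* in HT29 is not drawn because no array of either group was well above background. Most points lie left of 0, and *HSPA4L* and *DNAJB2* show the widest gaps between the lines among genes called in HT29.

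When OXA plus Curcumin was set against untreated cells, some genes ended above and others below their starting level. In HT29, 7 of 37 were called higher and 8 lower, with 9.56% and 9.02% of all names called. In HTOXAR3, 11 were called higher and 5 lower, with 8.82% and 8.64% of all names called. *HSPA6* was 65.5-fold and 72-fold above untreated (6.03 ± 0.15 and 6.17 ± 0.15, or 2.91 and 3.73 on the log2 scale by its second probe), *BAG3* 2.07-fold and 2.47-fold, and *DNAJB4* 2.09-fold and 2.07-fold. *HSPA1A*, lower with OXA alone, was higher than untreated with the combination (0.47 ± 0.09 in HT29 and 0.99 ± 0.09 in HTOXAR3, limma adjusted p = 0.00862 and 1.08e-05). *HSPA1B* was called in HTOXAR3 (0.92 ± 0.09). *BAG1*, also lower with OXA alone, was not called against untreated in either line (-0.07 ± 0.07 and -0.04 ± 0.07), and its groups overlapped. Likewise *DNAJB1* (0.28 and 0.50), *DNAJB2* (1.14 and 0.75) and *HSPB1* (0.48 and 0.28) were called higher in both lines, though the other *DNAJB2* probe was not called in HTOXAR3 (0.41, limma adjusted p = 0.083). *DNAJA4* (0.41), *DNAJB6* (0.48) and *HSF2* (0.42) were called higher in HTOXAR3. In contrast, *HSPA8* (-0.59 and -0.36), *HSPA4L* (-0.91 and -0.29), *HSPD1* (-0.45 and -0.32), *HSPE1* (-0.51 and -0.40) and *STUB1* (-0.72 and -0.71) were called lower in both lines, and *PTGES3* (-0.52), *CACYBP* (-0.34) and *AHSA1* (-0.29) in HT29. Another *CACYBP* probe was also called lower in HTOXAR3 (-0.66, limma adjusted p = 0.00373). These comparisons share the untreated arrays with the comparison of OXA against untreated. Calls lost without 1 of the 6 arrays were those of *DNAJB1* (any array), *AHSA1* (untreated replicates 2 and 3, Curcumin replicates 2 and 3) and *HSPA1A* (untreated replicates 1 and 2, Curcumin replicate 2) in HT29. In HTOXAR3 they were those of *HSPA4L* and *HSPA8* (5 and 5 of the 6 arrays), *DNAJA4* (5), *HSPB1* (4) and *HSF2* (3). With slide as a block, *DNAJB1* was lost in HT29 and *HSPA4L* and *HSPB1* in HTOXAR3. The replicate block also lost *DNAJB1* in HT29. With the replicate block within each line, *AHSA1* and *DNAJB1* were lost in HT29 and *HSPA8* and *HSPA4L* in HTOXAR3. The dimmest *HSPB1* probe was called in neither line (-0.07 and -0.25).

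**Figure D5:**
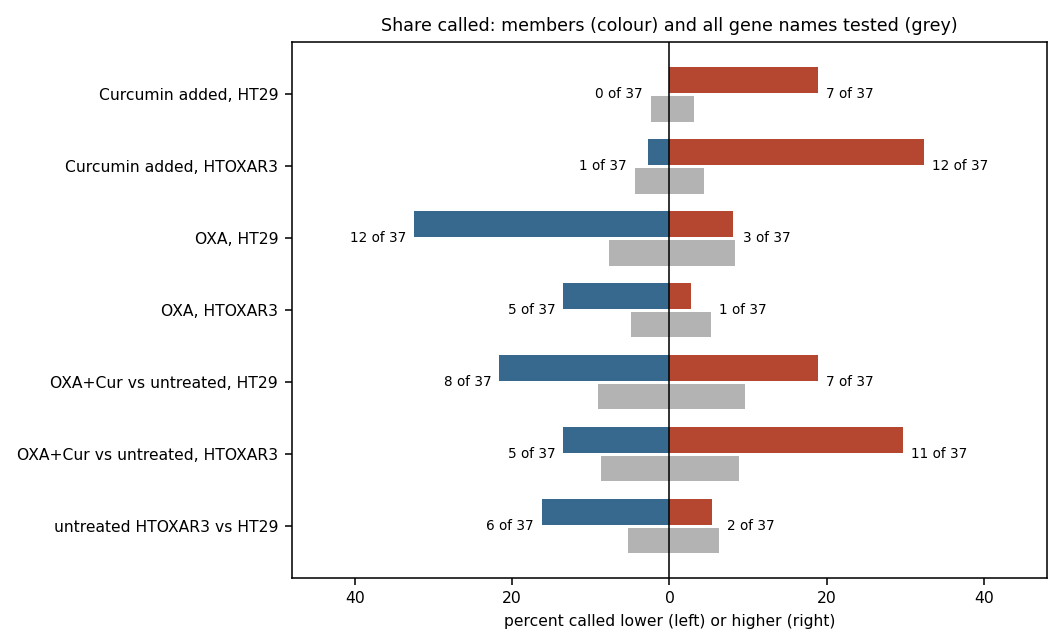
Percent of the 37 genes called lower (blue, left) or higher (red, right) in each of 7 comparisons, with the percent of all gene names tested called in the same direction in grey below each bar. The share called higher on adding Curcumin, 18.9% in HT29 and 32.4% in HTOXAR3, stands above 3.14% and 4.43% of all names. All names include undetected ones, while 36 of the 37 genes were well above background on all 18 arrays. The share among detected names was not computed.

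Before any treatment, the lines differed in 8 of the 37 genes. In HTOXAR3, 2 were called higher and 6 lower than in HT29, with 6.26% and 5.28% of all names called. *HSPA2*, an HSP70 known from testis, read 6.38, 6.23 and 6.64 in HT29 and 7.21, 6.92 and 7.21 in HTOXAR3 (0.70 ± 0.13, limma adjusted p = 0.0169), and *AHSA1* was higher by 0.44 ± 0.06. Both subunits of the mitochondrial chaperonin were lower, *HSPD1* at 18.19, 18.16 and 18.24 in HT29 and 17.76, 17.79 and 17.82 in HTOXAR3 (-0.40 ± 0.05, limma adjusted p = 0.000401) and *HSPE1* by 0.53 ± 0.06 (limma adjusted p = 0.000102). *HSF1* was also lower (-0.41 ± 0.07, limma adjusted p = 0.00378), as were the HSP90 co-chaperones *CHORDC1* (-0.47), *STIP1* (-0.42) and *FKBP4* (-0.33). No call was left when only the 6 untreated arrays entered the model, and 5 were left without the second untreated HT29 array or the first untreated HTOXAR3 array. The calls lost without 1 array or another were those of *HSPA2*, *CHORDC1* and *FKBP4*. *HSPA1L*, *HSPA4*, *HSPA14*, *HSPA13*, *HSP90AA1*, *HSP90AB1*, *DNAJA1*, *CRYAB* and *SERPINH1*, 9 genes in all, were called in no comparison with the probe used, although 1 of the other *HSP90AA1* probes was called lower in HT29 with OXA (-0.43) and with OXA plus Curcumin (-0.42) against untreated. Some of the 9 were called under other settings. With Benjamini-Hochberg adjustment, *HSP90AB1* and *SERPINH1* were called for OXA in HT29. The same adjustment called *HSPA1L* and *HSP90AA1* between the untreated lines, and *HSPA14* for OXA plus Curcumin against untreated in HT29.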

How the data were processed

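RNA of 18 samples had been hybridised by the authors to one-color Agilent human arrays, and the deposited scanner files hold intensity per spot from Feature Extraction 10.7.3.1. The authors' own table of normalized values was not used because its 36204 lines, with 18 value columns, carry no probe names. Mean spot intensity was background-corrected with normexp (offset 0) and quantile-normalized with limma 3.58.1 in R 4.3.3, control spots were left out afterwards, spots of a probe were averaged, and 50599 probes were reduced to 36204 gene names by the highest mean. The offset used by the authors is not given in the sources used here. A model with 6 group terms was fitted to all 18 arrays. Genes were called at a Benjamini-Yekutieli adjusted p under 0.05 and a fold over 1.2, the thresholds of the study's methods, with p-values adjusted over all names. Values are log2 intensity, which cannot be compared between genes. The replicate numbers were checked for pairing: same-numbered arrays deviated together, with every correlation over 0.1, in the comparison of Curcumin in HTOXAR3 (0.109 to 0.195) and of OXA in HT29 (0.117 to 0.242), where each pair shared a slide, and not in the other comparisons. The smallest correlation between arrays of a group was 0.984, and the number of arrays limits the precision. Settings varied were the offset, the scaling, the choice of probe, a detection filter, the adjustment, the fold, blocks, and each array left out. Promoter windows came from RefSeq tables. The fit was tested on simulated data. The 37 genes and the pathway lists were chosen with earlier results of these data known. Named with values on every array were 13 genes listed by role and any other called on adding Curcumin, to which *HSPA4L* and *HSPA2* were added after their values were seen. Of other lists, called genes were named, at most the 4 with the largest changes each.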

Additional observations from a re-analysis of the deposited data

Results flagged for a closer look

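For 2 genes of the set, the response to OXA differed between the lines in a test of the difference itself, the fold in HTOXAR3 against that in HT29 on the log2 scale. *HSPA4L* differed by 0.70 ± 0.09 (limma adjusted p = 0.00559), since it fell by 0.95 in HT29 and had a difference of -0.24 in HTOXAR3 that was not called. *DNAJB2* differed by -0.62 ± 0.10 (limma adjusted p = 0.0283), since it rose by 0.74 in HT29 and gave 0.12, not called, in HTOXAR3. The lines received 10 and 30 μM OXA, so line and dose cannot be told apart. The *HSPA4L* difference lay between 0.66 and 0.75 without each array in turn and stayed called each time, whereas the call of *DNAJB2* was lost in 11 of 12 such fits.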

How the results depend on the processing

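For 40 log2 differences of the named genes on adding Curcumin, recomputed under 12 other settings, 435 of 480 values kept their side of the threshold. Of the rest, 38 were no longer called and 7 became called, and 0 of those called changed sign. Values that were not called could change sign, as for *HSPA8* in HT29, at 0.02 and from -0.03 to 0.04 under these settings. *HSPA6* was called under each setting. Against 7 and 13 genes called on adding Curcumin in HT29 and HTOXAR3, a fold over 2 left 4 and 5, and fitting only the arrays compared left 1 and 4. For OXA, these settings left 0 and 4 of 15 calls in HT29, and 0 and 0 of 6 in HTOXAR3, where Benjamini-Hochberg adjustment gave 10. For OXA plus Curcumin against untreated, they left 4 and 6 of 15 in HT29 and 3 and 7 of 16 in HTOXAR3, and for the untreated lines 0 and 0 of 8. Of the 2 line differences in the response to OXA, a fold over 2 left 0, and 1, *HSPA4L*, was left under both scalings to the 75th percentile, with either replicate block, while fitting only the arrays compared left 1, *DNAJB2*. With the replicate number as a block the calls were 7, 12, 16, 6, 14, 16 and 8 in the order above, and with the block within each line, added after seeing the data, OXA in HTOXAR3 gave 3. Without 1 array at a time, the calls ranged from 6 to 7 and 9 to 12 for Curcumin in HT29 and HTOXAR3, 12 to 15 and 3 to 4 for OXA, 12 to 17 and 11 to 15 for OXA plus Curcumin, 1 to 2 for the line difference in OXA, 0 to 0 for that in Curcumin, and 5 to 7 for the untreated lines. The dimmest *DNAJB6* probe gave -0.26 on adding Curcumin in HTOXAR3 against 0.51 for the probe used, and the cause was not tested. Scaling to the 75th percentile moved the median log2 difference of all names to between -0.19 and 0.09, against -0.03 to 0.01. Heat shock element matches were held by 9 genes in the stricter form and 20 in the other. An offset of 50 lowered *HSPA6* to 5.59 and 5.61. Dim probes such as *HSPB8* were limited by signal over background.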
